A study of Mus musculus with 18 samples.

Results

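HetKO cells, P19 cells that keep a single full-length Dicer1 allele, were compared with their WT parent line across the transcriptome. Genes entered the comparison where their TPM averaged 1 or more in the 12 samples of these lines, which left 13999 of the 55450 genes in the table. TPM is a relative abundance of transcripts, corrected for their length and scaled to a fixed total in each sample. P19 is a mouse embryonic carcinoma line of male origin that grows as undifferentiated cells and can be induced to differentiate. WT cells carried the genotype Dicer (+/+) and HetKO cells Dicer (+/-), with no other treatment named for either. The truncated allele came from a frameshift made with a pair of guide RNAs in exon 26 of Dicer1. In GRCm38, exon 26 of the 27 exons of transcript Dicer1-201 spans 104692127 to 104692202 on the minus strand of chromosome 12. The HetKO line was a single clone. The HM line, Dicer (HM/-), was made from it by editing the remaining full-length allele, and its values are given beside the others. HM and HetKO were set against the same WT samples. Each line had 6 samples. The HetKO samples were entered in the record apart from the WT and HM samples. Whether the HetKO libraries were also prepared or sequenced apart is not stated, and such a difference cannot be told apart from the line. With 1 clone, the loss of the allele and the descent from 1 founder cell cannot be told apart.

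Dicer cuts hairpin precursors into mature miRNAs, which guide Argonaute proteins to mRNAs and repress them. Embryonic carcinoma cells are held in an undifferentiated state by transcription factors such as Pou5f1, Sox2 and Nanog, and they share epithelial junction proteins with the early embryo. A line grown from a single cell also passes on the chromosome content, imprints and promoter states that its founder had.

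Upstream sequence is shown for 4 genes with large differences between the lines for which RefSeq promoters were at hand, so that the CG content of genes that fell and genes that rose can be seen. Mgst1 and Nt5c3b fell, and Grb10 and Pld1 rose. Each line gives the 250 bases before an annotated start in GRCm38.p6, from RefSeq, 5′ to 3′ on the strand of the gene, with CG dinucleotides in capitals. CG reads the same on both strands. Of the 2 starts listed for each gene, the one with more CG is printed. For Grb10 and Mgst1 this start lies inside the gene span given below, so the window overlaps the gene. The windows lie at chr6:138140277-138140526 on the plus strand for Mgst1, chr11:100441099-100441348 on the minus strand for Nt5c3b, chr11:12037421-12037670 on the minus strand for Grb10 and chr3:27938430-27938679 on the plus strand for Pld1.
Mgst1: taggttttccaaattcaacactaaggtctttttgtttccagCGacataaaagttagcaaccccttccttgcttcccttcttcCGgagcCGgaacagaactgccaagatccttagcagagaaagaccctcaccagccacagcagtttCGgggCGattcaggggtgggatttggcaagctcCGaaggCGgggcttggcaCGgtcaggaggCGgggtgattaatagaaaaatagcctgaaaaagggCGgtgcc
Nt5c3b: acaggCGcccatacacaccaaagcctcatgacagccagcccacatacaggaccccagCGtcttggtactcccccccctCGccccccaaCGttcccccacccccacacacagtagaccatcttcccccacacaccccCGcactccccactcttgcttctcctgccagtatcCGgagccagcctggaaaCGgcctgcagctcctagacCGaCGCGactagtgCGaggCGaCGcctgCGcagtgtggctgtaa
Grb10: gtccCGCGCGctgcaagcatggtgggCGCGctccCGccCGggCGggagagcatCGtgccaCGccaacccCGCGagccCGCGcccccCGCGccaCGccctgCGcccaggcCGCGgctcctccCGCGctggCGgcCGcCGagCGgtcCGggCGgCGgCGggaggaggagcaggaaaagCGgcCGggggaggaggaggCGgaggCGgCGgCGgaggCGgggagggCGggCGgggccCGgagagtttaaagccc
Pld1: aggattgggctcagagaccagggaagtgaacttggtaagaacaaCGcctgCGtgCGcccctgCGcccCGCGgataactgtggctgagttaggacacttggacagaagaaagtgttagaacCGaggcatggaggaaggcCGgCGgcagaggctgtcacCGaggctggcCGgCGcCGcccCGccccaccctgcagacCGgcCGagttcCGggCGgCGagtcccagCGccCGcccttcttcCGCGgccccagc
A CG was present in 92.1% of the 32851 promoter windows of this length, with a median of 6. Mgst1 held 10 and Nt5c3b 14, and Grb10 held 40 and Pld1 23. Since the start with more CG was chosen, these counts are not ranked against all windows. Windows were at hand for 9857 of the 13999 genes tested, or 70.4%. CG content was not compared between called and other genes, and the 4 genes shown cannot stand for such a comparison.

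Within HetKO, and for replicates 1 and 4 within WT, some samples were far closer to each other than to the rest. In the 676 genes that averaged 200 TPM or more, log2 differences between HetKO replicates 1 and 4, 2 and 5, and 3 and 6 had a robust SD of 0.0515 to 0.0678. The robust SD was 0.162 to 0.353 for the 12 other pairs of HetKO samples. The corresponding ranges in WT were 0.0492 to 0.0737 and 0.0741 to 0.204. In WT the upper part of the second range came from replicates 1 and 4, at 0.181 to 0.204 from the others. Unlike pairs among WT replicates 2, 3, 5 and 6 were at 0.0741 to 0.0946. In WT the pairs 2 and 5, and 3 and 6, were thus only weakly set apart. HetKO replicates 2 and 5 stood apart in markers of differentiation. T, the transcription factor Brachyury of early mesoderm, was at 110.5 and 66.2 TPM in them and at 0.94 to 9.13 TPM in the other 4 HetKO samples, against 3.45 to 8.60 TPM in WT. Eomes, a regulator of mesoderm and endoderm, was at 80.8 and 67.9 TPM in these samples and at 7.02 to 15.5 TPM in the others. Results are therefore also given with the alike pairs treated as a correlated block, with pair means as replicates, or without HetKO replicates 2 and 5. Pair-mean results are given for some genes and lists only. Nothing in the sources says whether samples came from separate cultures, so p-values measure the spread between these samples, which may be technical.

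Dicer1, the targeted gene, comes first. It ranged from 49.2 to 54.8 TPM in WT (median 52.8) and from 42.9 to 53.8 TPM in HetKO (median 47.4). The lines overlapped, with a difference of -0.12 ± 0.06 (SE) in log2(TPM + 1) and a limma adjusted p of 0.207. The study reported lower Dicer mRNA by RT-qPCR and lower protein by western blot in HetKO than in WT, and proposed a compensation that maintains Dicer. How far the frameshift lowers the mRNA was not tested in the present comparison, so the level does not check the label. Without HetKO replicates 1 and 4 the difference was -0.19 (limma adjusted p = 0.0409). Among the Argonautes, which carry the miRNA, Ago2 fell from a mean of 54.9 ± 2.67 to 47.9 ± 3.37 TPM (SD, n = 6 per line; limma adjusted p = 0.0464). Ago3 fell from 6.05 ± 0.723 to 4.37 ± 0.796 TPM (SD, n = 6 per line; limma adjusted p = 0.0442). Both lost the call with pairs as a block, at limma adjusted p = 0.33 and 0.462. Both also lost it without HetKO replicates 2 and 5. Ago1 averaged 38.8 TPM in WT and 37.2 TPM in HetKO, with a difference of -0.04 that turned to 0.02 after median centring and to 0.08 without HetKO replicates 2 and 5. Ago4, at means of 0.997 and 0.692 TPM, was below the limit for testing.
Of 16 miRNA biogenesis genes tested, 3 fell and 0 rose in the 12-sample limma fit (1 at an unadjusted p of 0.05; in an unequal-variance test per gene 0 rose and 1 fell). The share that fell was 18.75% against 6.44% over all genes. The block of pairs left 0 lower, and median centring 1. The other member that fell was Ddx17, an RNA helicase of the Microprocessor, with 156 to 180.0 TPM in WT and 107 to 144 TPM in HetKO, which did not overlap. Of 26 genes of silencing and mRNA decay, 1 fell, or 3.85% against 6.44% over all genes. It was Tnrc6b, a partner of Argonaute, which fell from a mean of 20.04 to 16.3 TPM. That call was lost with pairs as a block (limma adjusted p = 0.333). The median differences of these lists were -0.07 and -0.05, beside -0.03 over all genes tested.

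Across all genes tested, 1421 passed a Benjamini-Hochberg adjusted p of 0.05 in limma, or 10.2%. Of these, 519 were higher in HetKO (3.71%) and 902 lower (6.44%). After median centring the split was 768 higher and 748 lower, and after quantile normalization it was 728 and 787. With alike pairs as a random block, whose estimated correlation was 0.772, 320 genes passed (2.29%), 127 higher (0.907%) and 193 lower (1.38%). On pair means, 3 against 3, 35 genes passed (0.25%), 9 higher (0.0643%) and 26 lower (0.186%), and all 35 were also among the 1421. Of the genes called in the 12-sample fit, 1002 showed no overlap between the lines, a share that was not counted over all tested genes. Of those called, 243 differed at least 2-fold on the log2(TPM + 1) scale, 36 higher and 207 lower. This scale understates the change of genes with low TPM. Levels are per cell population, so fewer cells of a type and less RNA per cell cannot be told apart.

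Several Y-linked genes separated the lines completely. Eif2s3y, the Y copy of a translation initiation subunit, lies at Y:1010543-1028847. It was at 52.3 to 57.9 TPM in the WT samples and was listed at 0 TPM in each of the 6 HetKO samples. Ddx3y, an RNA helicase, was at 20.8 to 29.8 TPM in WT and was listed at 0 in all HetKO samples. Uty, a relative of histone demethylases, was at 15.8 to 19.9 TPM in WT, and Kdm5d, a histone H3 lysine 4 demethylase, at 8.82 to 11.98 TPM, and both were listed at 0 in all HetKO samples. The limma adjusted p of these 4 genes was at most 8.58e-11, and at most 0.000407 on pair means. The 6 HM samples gave 61.2 to 71.5 TPM for Eif2s3y, 41.9 to 57.1 TPM for Ddx3y, 14.8 to 19.7 TPM for Uty and 10.4 to 12.5 TPM for Kdm5d. By the study's methods HM was derived from the HetKO clone, and the HM libraries hold Y-linked transcripts that the libraries labelled HetKO lack. What sets these libraries apart was not tested.
Of 9 Y-linked genes tested, 8 were lower in HetKO, 88.9% against the 6.44% called lower over all genes. The exception was Gm20775, at 9.90 to 13.2 TPM in WT and 9.97 to 12.7 TPM in HetKO. Gm47283 fell without reaching 0, from 252 to 431 TPM in WT to 94.3 to 185 TPM in HetKO. Over the whole table, 49 of 1570 genes annotated to Y had a TPM above 0 in a WT sample, 8 in a HetKO sample and 70 in an HM sample. The X-linked partners of these genes had overlapping ranges. Eif2s3x was at 209.9 to 239 TPM in WT and 199 to 244 TPM in HetKO. Kdm5c was at 64.7 to 69.3 and 61.98 to 66.03 TPM, Kdm6a at 37.8 to 45.9 and 31.8 to 39.8 TPM, and Ddx3x at 226 to 244 and 206 to 382 TPM. The 4 partners did not pass the test (limma adjusted p = 0.0732 to 0.898). Such X and Y copies are close paralogs, and the quantification could split reads that they share.
Mid1, singled out after its values were seen, lies on X at the boundary with the pseudoautosomal region, which X and Y share. It fell from 19.8 to 72.9 TPM in WT to 4.41 to 6.50 TPM in HetKO, with HM at 5.59 to 52.9 TPM. Of 7 genes tested in the 1 Mb that holds its start, 4 were lower (57.1% against 6.44% over all genes). With pairs as a block 2 of them were lower. One of the 4 was Hccs, a mitochondrial cytochrome lyase, with means of 42.2 and 27.2 TPM.

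**Figure D1:**
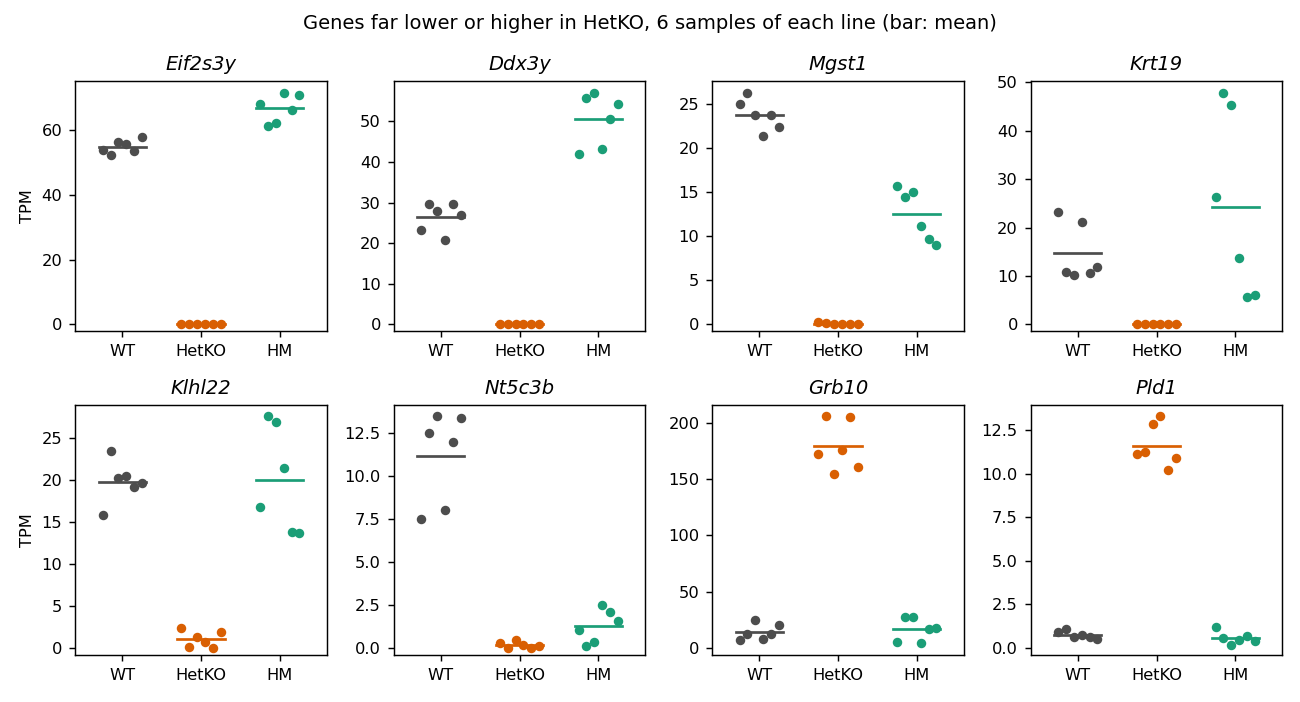
TPM in the 6 samples of WT, HetKO and HM (points; the bar is the mean) for 8 genes, each on its own linear axis. Eif2s3y and Ddx3y are at 0 in all HetKO samples and present in all WT and HM samples, while Grb10 is at 154 to 206 TPM in HetKO and at most 27.7 TPM in the other lines.

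Outside the Y chromosome, several genes with moderate levels in WT were nearly silent in HetKO. Mgst1, a microsomal glutathione transferase at 6:138140316-138156755, was at 21.4 to 26.3 TPM in WT (median 23.8). In HetKO it was listed at 0 in 4 samples and reached 0.21 TPM in the highest, with no overlap (limma adjusted p = 2.28e-12, 4.98e-05 on pair means). HM stood between them at 8.98 to 15.7 TPM. Krt19, a keratin of simple epithelia, was at 10.3 to 23.2 TPM in WT, listed at 0 in 5 HetKO samples and at 0.12 TPM in the sixth (limma adjusted p = 8.03e-08). Its HM range was 5.69 to 47.9 TPM. Nt5c3b, a nucleotidase, fell from 7.51 to 13.4 TPM to at most 0.46 TPM (limma adjusted p = 6.07e-08), and HM was also low at 0.13 to 2.50 TPM. Klhl22, an adaptor of a cullin ubiquitin ligase, fell from 15.8 to 23.4 TPM in WT to 0.05 to 2.35 TPM in HetKO, with HM at 13.7 to 27.6 TPM. For Klhl22, HetKO replicates 2 and 5 were lowest, at 0.12 and 0.05 TPM.
These and the other named decreases were chosen for passing both fits without overlap, so their calls add no separate evidence. Folr1, a folate receptor, fell from 25.5 to 33.2 TPM to 2.25 to 7.57 TPM. Igfbp3, a binding protein of insulin-like growth factors, fell from 33.5 to 73.1 TPM to 8.57 to 12.1 TPM. Hapln4, a link protein of the hyaluronan matrix, went from 5.35 to 10.8 TPM to at most 1.00 TPM, and Wdr86 was at 3.48 to 8.59 TPM in WT, listed at 0 in 5 HetKO samples and at 0.08 TPM in the other. HM was at 31.3 to 72.7 TPM for Folr1 and 9.27 to 32.3 TPM for Igfbp3. With HetKO replicates 2 and 5 left out, each of these 8 genes kept a limma adjusted p of at most 0.000242.

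A further count took genes averaging 1 TPM or more in one line and less than 0.1 TPM in every sample of the other. This held for 106 genes present in WT and 45 present in HetKO, of which 61 and 30 rested on a single sample. Of the 8 named from those present in WT, Eif2s3y, Ddx3y, Uty, Kdm5d and Wdr86 reached 0.1 TPM in all 6 samples. The other named genes in both directions were small RNAs, which poly(A) libraries do not measure well. Genes at 0.1 TPM or more in all 6 WT samples numbered 28, and 19 of them were at or above 0.1 TPM in all 6 HM samples. Named after their values were seen, these included the germ cell genes Ddx4, an RNA helicase, at 0.95 to 2.74 TPM in WT, and Boll, an RNA-binding protein, at 0.36 to 5.45 TPM. Lama1, a laminin chain of the basement membrane, was at 2.22 to 3.33 TPM in WT and at most 0.01 TPM in HetKO. Nptx2, a secreted pentraxin, was at 1.28 to 11.9 TPM in WT and listed at 0 in every HetKO sample. In the other direction 1 gene met the same demand, Nkx6-1, a homeobox factor, at 0.44 to 2.66 TPM in HetKO and at most 0.09 TPM in WT.

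Grb10 and Pld1 showed the largest increases among the named genes that were tested, Grb10 on the log2(TPM + 1) scale and Pld1 by the ratio of means. Grb10 encodes an adaptor that restrains insulin receptor signalling and is imprinted in the mouse, and it lies at 11:11930508-12038683 on the minus strand. Grb10 was at 7.13 to 25.02 TPM in WT (median 12.7) and at 154 to 206 TPM in HetKO (median 174), a ratio of means of 12.5. The difference was 3.68 ± 0.25 (SE) in log2(TPM + 1), with a limma adjusted p of 1.67e-06, or 0.0106 on pair means. HM was at 4.72 to 27.7 TPM. The nearest tested genes on either side, Ddc and Cobl, did not pass the test with 12 samples, with differences of -0.41 and -0.36. Without HetKO replicates 2 and 5, Ddc was lower (limma adjusted p = 0.0062). Pld1, phospholipase D1, at 3:27938695-28133362, was at 0.51 to 1.08 TPM in WT and 10.2 to 13.3 TPM in HetKO, a ratio of means of 15.5 (limma adjusted p = 2.55e-09, 0.000742 on pair means). HM was at 0.16 to 1.21 TPM.
The other increases described here that passed both fits lay in 2 stretches of the genome. Vps72, a subunit of chromatin remodellers, rose from a mean of 60.1 to 102 TPM. Rnf115, a ubiquitin ligase, rose from 45.3 to 74.00 TPM. Both are on chromosome 3 between 95111022 and 96791638. Hdac6, the cytoplasmic tubulin deacetylase, rose from 38.8 ± 2.21 to 80.4 ± 4.81 TPM (SD, n = 6 per line). Slc35a2, a UDP-galactose transporter, rose from 23.2 ± 1.99 to 44.5 ± 4.34 TPM, and Rbm3, a cold-induced RNA-binding protein, from 322 ± 25.5 to 719 ± 132 TPM. These 3 lie close together on X. Frrs1, Catsperz and Ndst3 were added to the named increases from the 12-sample fit alone, with limma adjusted p on pair means of 0.104 to 0.128. Frrs1 rose from 0.28 to 3.08 TPM to 5.95 to 12.4 TPM, Catsperz from 0.14 to 3.04 TPM to 3.92 to 6.83 TPM, and Ndst3, an enzyme of heparan sulfate synthesis, from 1.37 to 3.36 TPM to 6.49 to 12.1 TPM.

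The X-linked increases formed a run, singled out after its values were seen. From Slc35a2 to Slc38a5, at X:7884028-8280179, 16 genes were tested and 14 were higher (87.5%, against 3.71% over all genes). Of the run, 13 showed no overlap between the lines, a share that was not counted over all tested genes. The called members differed by 0.72 to 1.30 in log2(TPM + 1), or ratios of TPM + 1 of 1.64 to 2.46. The members not called were Glod5 and the pseudogene Rpl22-ps1, with WT means of 1.25 and 1.06 TPM. Eras, a Ras protein of embryonic stem cells, rose from 12.2 to 21.98 TPM to 27.8 to 72.02 TPM. Suv39h1, a histone H3 lysine 9 methyltransferase, rose from 18.3 to 23.7 TPM to 37.6 to 57.8 TPM. Ebp, an isomerase of cholesterol synthesis, rose from a mean of 18.98 to 36.5 TPM, and Porcn, which acylates Wnt proteins, from 12.2 to 30.98 TPM. Of the 20 tested genes in the flanks, from -776 to 1398 kb from Hdac6 and only partly drawn in the figure, 1 passed, Plp2, which was lower. Beyond Slc38a5 the nearest tested gene, Lancl3, lay 1270 kb from Hdac6 and differed by 0.54 (limma adjusted p = 0.104). The extent of the run on that side is therefore not set by these data. Pim2, the neighbour of Slc35a2 outside the run, averaged 488 and 594 TPM (limma adjusted p = 0.361). In each HetKO sample set against the WT mean, the median over the 16 genes was 0.83 to 1.17. With pairs as a block 12 passed, and without HetKO replicates 2 and 5 13 passed. In HM, the difference from WT over the 14 genes had a median of -0.06 and ranged from -1.06 for Porcn to 0.72 for Pqbp1.

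**Figure D2:**
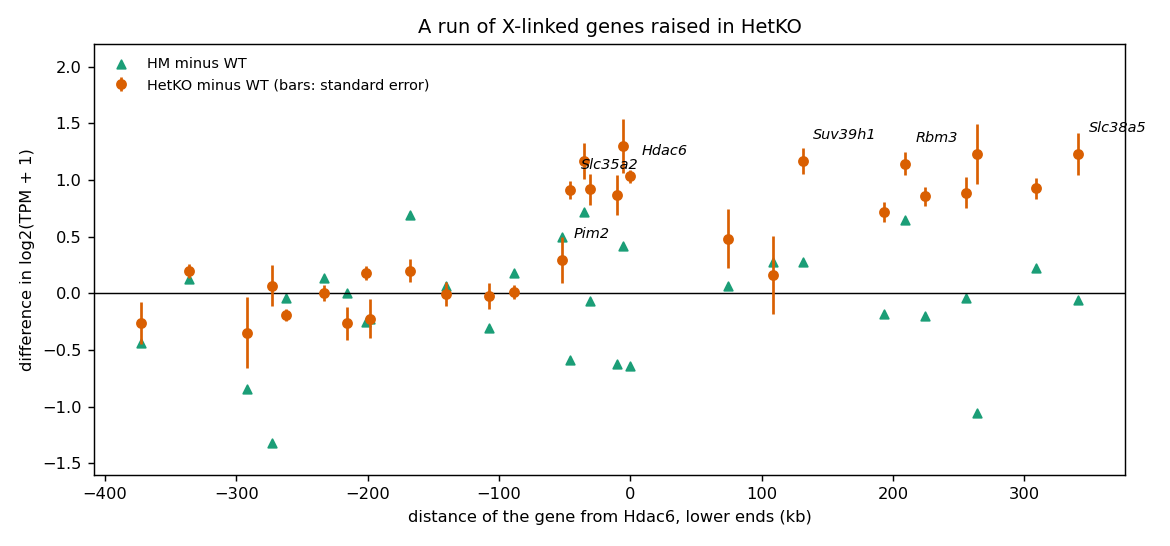
Difference in log2(TPM + 1) from WT for tested genes around Hdac6 on the X chromosome, by distance in kb; circles are HetKO with the standard error from limma, triangles are HM. Circles stand between 0.72 and 1.30 for the 14 called genes from Slc35a2 to Slc38a5, while triangles in the run range from -1.06 to 0.72.

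By chromosome, chromosome 3 stood out for genes that rose. There, 135 of 680 tested genes were higher (19.9%) and 30 lower (4.41%). The share of genes that rose on the other autosomes was 0.748% to 5.28%. Between 90 and 120 Mb, 112 of 238 genes were higher (47.1%) and 3 lower, with a median difference of 0.43. In the fit with pairs as a block 63 were higher, and without HetKO replicates 2 and 5 112. The sample medians there ran from 0.36 to 0.49 across the 6 HetKO samples, and the median for HM against WT was 0.07. On the rest of chromosome 3, 23 of 442 genes were higher and 27 lower, and the adjoining windows from 120 to 122 Mb and from 122 to 124 Mb held 5 and 6 of those higher. Named genes in the stretch included Mcl1, a survival protein of the Bcl2 family, with means of 84.5 and 123 TPM, and Phgdh, the first enzyme of serine synthesis, with means of 277 and 454 TPM (limma adjusted p = 0.00942 and 8.17e-05). Without the stretch, 407 of 13761 genes were higher and 899 lower.
In windows of 2 Mb with at least 8 tested genes, at least 33.3% of the genes were higher in 15 of 637 windows and lower in 8. Of the 15, 10 lay on chromosome 3. Another, on chromosome 11 from 96 to 98 Mb, held 14 higher genes of 39 (35.9%), 11 of them also with pairs as a block. It held Kpnb1, importin beta, with 390.1 to 434 TPM in WT and 555 to 645 TPM in HetKO, Psmb3, a proteasome subunit, with 508 to 559.7 and 673 to 752 TPM, and the ribosomal gene Rpl23. Of the windows with genes that fell, chromosome 13 from 104 to 106 Mb held 6 lower of 10, and 0 with pairs as a block. These windows were read after the values were seen.

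**Figure D3:**
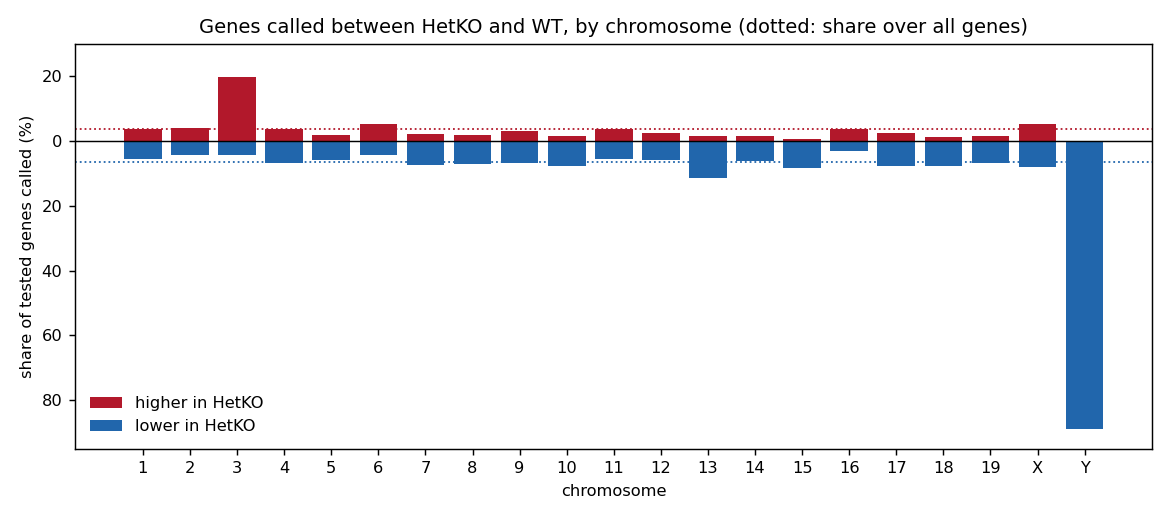
Share of tested genes on each chromosome that were called higher (up) or lower (down) in HetKO, in percent, with dotted lines at the shares over all genes, 3.71% and 6.44%. Chromosome 3 reaches 19.9% higher, and 8 of 9 tested Y-linked genes are lower.

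Core pluripotency genes were called in both directions, and the genes of the naive state that passed the 12-sample fit were lower. Of 12 core genes, all tested, 3 rose and 1 fell, the latter 8.33% against 6.44% over all genes. In the fit with pairs as a block 2 rose and 0 fell, and on pair means 0 rose and 0 fell. After median centring the counts were 4 and 0, and in the unequal-variance test 1 and 0. Pou5f1, the central factor, was at 2023 to 2136 TPM in WT and 1814 to 2244 TPM in HetKO (limma adjusted p = 0.997). L1td1, an RNA-binding protein of stem cells, rose from 128 to 149.5 TPM to 199 to 418 TPM, and Sall4, a zinc finger factor, from 20.2 to 27.9 TPM to 34.3 to 69.5 TPM. L1td1 was highest in HetKO replicates 2 and 5, and without them the limma adjusted p was 0.000167 for L1td1 and 0.00303 for Sall4. Sox2 rose from a mean of 98.6 to 114 TPM, and its limma adjusted p with pairs as a block was 0.329. Nanog had a mean of 46.9 TPM in WT and 86.3 TPM in HetKO and did not pass (limma adjusted p = 0.0651). Utf1, a chromatin protein, fell from a mean of 219.7 to 148 TPM, with a limma adjusted p of 0.157 with pairs as a block.
Of 10 naive pluripotency genes tested among 14 listed, 6 fell and 0 rose in limma (0 at an unadjusted p of 0.05; in an unequal-variance test per gene 0 rose and 3 fell), with a median difference of -1.01 beside -0.03 over all genes. With pairs as a block 3 were lower, and without HetKO replicates 2 and 5 it was 4. Quantile normalization gave 3 lower and 1 higher. Nr0b1, an orphan nuclear receptor, fell from 15.1 to 27.96 TPM to 6.89 to 11.9 TPM, and Fgf4, which signals through FGF receptors, from 9.55 to 13.4 TPM to 1.28 to 5.66 TPM. The ranges did not overlap for either gene, and HM was at 32.02 to 103 TPM and 17.1 to 38.5 TPM. Tcl1, an Akt cofactor, was listed at 0 in all HetKO samples and was at 5.44 to 6.26 TPM in 4 WT samples but at 0.27 and 0.84 TPM in WT replicates 1 and 4. Dppa5a was at 41.6 and 37.5 TPM in WT replicates 1 and 4, 2.90 to 3.75 TPM in the other WT samples and at most 2.79 TPM in HetKO. Zfp42, a zinc finger protein also called Rex1, fell from 0.93 to 3.82 TPM to 0.04 to 0.83 TPM, and Klf5, a Krüppel-like factor, from a mean of 4.53 to 2.91 TPM. The limma adjusted p of Zfp42 and Klf5 with pairs as a block was 0.25 and 0.23.
Of 12 primed-state genes tested, 2 rose and 1 fell, shares of 16.7% and 8.33% beside 3.71% and 6.44% over all genes. Foxd3, a forkhead factor, rose from 12.8 to 15.9 TPM to 23.1 to 37.1 TPM, and Sox11, an HMG-box factor, from 27.99 to 30.7 TPM to 35.9 to 43.8 TPM. Fgf5, a growth factor of the epiblast, fell from 3.97 to 8.97 TPM to 1.00 to 2.63 TPM, with HM at 19.1 to 59.6 TPM. All 3 passed limma with pairs as a block.

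Epithelial genes were lower as a group. All 21 listed were tested, 9 fell (42.9% against 6.44% over all genes) and 0 rose in limma (0 at an unadjusted p of 0.05; in an unequal-variance test per gene 0 rose and 6 fell). The differences were below 0 for 21 of 21, with a median of -0.64, or -0.35 without HetKO replicates 2 and 5. With pairs as a block 6 fell, on pair means 1, and without HetKO replicates 2 and 5 the count was 9. Cdh1, E-cadherin of the adherens junction, fell from 55.8 to 93.5 TPM to 17.8 to 40.8 TPM (-1.26 ± 0.22 SE, limma adjusted p = 0.0035, or 0.202 on pair means). The tight junction claudins fell too, Cldn6 from 85.1 to 109 TPM to 26.4 to 66.4 TPM, Cldn3 from 2.29 to 7.85 TPM to at most 0.5 TPM, and Cldn7 from 3.61 to 20.9 TPM to at most 0.44 TPM. For Cldn7, WT replicates 1 and 4 were the high samples at 20.9 and 20.9 TPM. Esrp1, a splicing regulator of epithelia, fell from 16.6 to 27.6 TPM to 4.26 to 12.1 TPM. The lowest values of Cdh1 belonged to HetKO replicates 2 and 5. Epcam, an adhesion protein, fell from a mean of 241 to 201 TPM.
Of 13 mesenchymal genes tested, 3 fell, Fn1, Sparc and Tgfb1, and 0 rose in limma (2 at an unadjusted p of 0.05; in an unequal-variance test per gene 0 rose and 3 fell). The share that fell was 23.1% against 6.44% over all genes, and 1 was lower with pairs as a block. Among 30 collagen and matrix genes tested, 7 fell (23.3% against 6.44% over all genes). With pairs as a block 2 fell, and without HetKO replicates 2 and 5 the count was 3. Fn1, fibronectin, fell from a mean of 65.9 to 45.97 TPM, Sparc, a matrix glycoprotein, from 85.8 to 62.6 TPM and the collagen Col9a1 from 2.72 to 1.00 TPM.

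**Figure D4:**
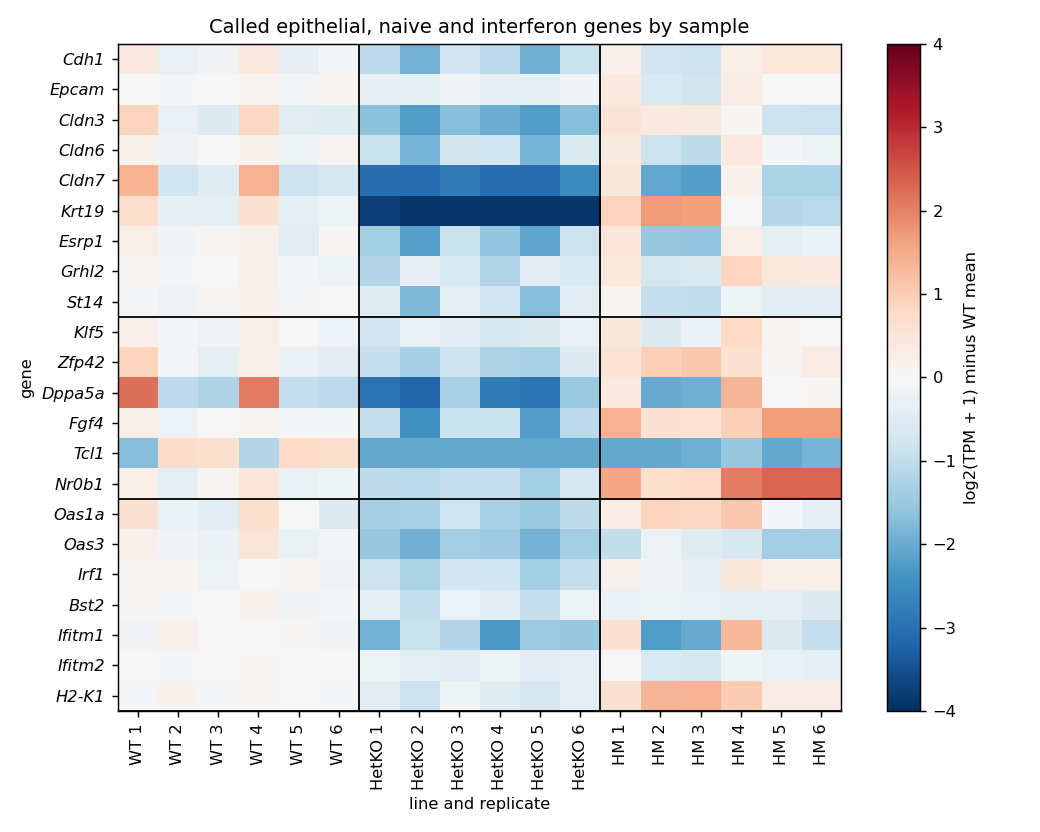
Log2(TPM + 1) minus the WT mean, by sample (columns), for the called members of 3 lists (rows), with HM samples beside WT and HetKO: 9 epithelial, 6 naive pluripotency and 7 interferon genes. HetKO columns are mostly blue, meaning lower, in all 3 blocks, which follows from drawing only members called lower. WT replicates 1 and 4 stand out for Cldn7 and Dppa5a.

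Some genes of double-stranded RNA sensing and interferon response were lower. Of 33 listed, 21 were tested, 7 fell (33.3% against 6.44% over all genes) and 0 rose in limma (0 at an unadjusted p of 0.05; in an unequal-variance test per gene 0 rose and 6 fell), with a median of -0.35 and 19 differences below 0. With pairs as a block 4 fell and on pair means 0. Without HetKO replicates 2 and 5 the count was 7 lower and 1 higher, with a median of -0.13. Irf1, an interferon-regulated transcription factor, fell from 16.2 to 20.5 TPM to 6.44 to 10.7 TPM. Oas3, which makes oligoadenylates on sensing double-stranded RNA, fell from 2.12 to 4.30 TPM to at most 0.48 TPM. The antiviral membrane protein Ifitm1 fell from 59.9 to 72.3 TPM to 12.3 to 34.1 TPM, and Ifitm2 from a mean of 533 to 419.9 TPM. In HM, Irf1 was at 14.7 to 26.1 TPM and Ifitm1 at 12.8 to 159.7 TPM.
Germ line genes were mostly too low to test, with 4 of 18 above the limit. Of these, 2 fell, both also with pairs as a block. Tex15, needed for meiosis and transposon silencing, fell from 7.23 to 10.8 TPM to 1.54 to 2.82 TPM (limma adjusted p = 4.87e-06, 0.0258 on pair means). Dnd1, an RNA-binding protein of germ cells, fell from 2.49 to 9.47 TPM to 0.28 to 1.21 TPM.
Of 29 imprinted genes tested, 2 rose and 3 fell, shares of 6.90% and 10.3% beside 3.71% and 6.44% over all genes. Without HetKO replicates 2 and 5 the counts were 3 and 6. With pairs as a block 1 passed in each direction, Grb10 and Igf2r. Igf2r, the receptor that clears Igf2, was at 10.8 and 10.1 TPM in WT replicates 1 and 4, 1.71 to 2.06 TPM in the other WT samples and at most 0.23 TPM in HetKO, and HM was at 14.3 to 17.3 TPM. Ascl2, a transcription factor of trophoblast, rose from a mean of 6.51 to 11.2 TPM. Inpp5f, a phosphoinositide phosphatase, fell by 0.34 on the log2 scale, and Dlk1, a Notch ligand relative, from 0.57 to 5.45 TPM to at most 0.33 TPM.

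In the FGF and ERK list, 6 of 23 tested genes fell and 0 rose in limma (0 at an unadjusted p of 0.05; in an unequal-variance test per gene 0 rose and 1 fell), with 2 lower with pairs as a block, Fgf4 and Fgf5, and 3 after median centring. The share that fell was 26.1% against 6.44% over all genes, and on pair means 0 fell. Fgfr2, an FGF receptor, fell from 7.09 to 15.03 TPM to 1.95 to 7.62 TPM, and Dusp4, an ERK phosphatase, from a mean of 10.9 to 5.47 TPM.
In the Wnt list, 4 of 33 rose (12.1% against 3.71% over all genes), 1 with pairs as a block and 0 on pair means. Wnt5a, a ligand, rose from 0.91 to 2.22 TPM to 2.68 to 7.92 TPM, with a limma adjusted p of 0.0368 with pairs as a block. Sfrp2, a secreted Wnt modulator, rose from a mean of 27.2 to 49.2 TPM, and the receptor Fzd7 and the scaffold Axin1 rose by 0.31 and 0.25 on the log2 scale. In the Nodal and BMP list, 3 of 32 fell (9.38% against 6.44% over all genes), and 1 with pairs as a block. Bmp7, a ligand, fell from 2.47 to 3.53 TPM to 0.19 to 0.57 TPM (limma adjusted p = 8.12e-06, 0.0465 on pair means). In the Hippo list, 4 of 20 fell and 1 with pairs as a block. Tead4, a transcription factor of the pathway, fell from a mean of 4.51 to 1.45 TPM, and Lats2, its kinase, from 2.21 to 0.848 TPM.
Of 22 G1 to S regulators, 1 rose and 1 fell, shares of 4.55% beside 3.71% and 6.44% over all genes. Ccnd1, cyclin D1, rose from 9.65 to 12.4 TPM to 17.5 to 52.7 TPM (limma adjusted p = 0.0108, or 0.296 on pair means). Cdkn2a, the locus of p16 and Arf, fell from 3.05 to 10.9 TPM to 0.88 to 1.91 TPM. Of 19 genes of the p53 list, 2 fell, or 10.5% against 6.44% over all genes. Trp53 fell by 0.69 and its ligase Mdm2 by 0.25 on the log2 scale, and neither passed with pairs as a block (limma adjusted p = 0.288 and 0.319).
Of 79 cytosolic ribosomal protein genes, 14 fell and 1 rose, and after median centring 3 fell. The share that fell was 17.7% against 6.44% over all genes. With pairs as a block 2 fell, and on pair means 0. Rps29 fell from a mean of 3353 to 2790.4 TPM, and Rpl23, in the chromosome 11 window, rose from 2542 to 3139 TPM. Of 75 nuclear subunits of oxidative phosphorylation, 3 rose and 5 fell, which turned to 7 and 1 after median centring. The shares, 4.00% and 6.67%, were near the 3.71% and 6.44% over all genes, and with pairs as a block 1 rose and 0 fell. Of 24 cholesterol synthesis genes, Ebp rose and Hmgcs1 fell, the latter by 0.96 on the log2 scale, shares of 4.17% beside 3.71% and 6.44% over all genes. The call of Hmgcs1 was lost with pairs as a block (limma adjusted p = 0.058).

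Markers of other cell types were also examined. Of the 18 mesoderm and definitive endoderm markers, 7 were tested and 0 passed in limma, with 2 higher and 1 lower at an unadjusted p of 0.05 and 0 in an unequal-variance test per gene. Their summed level was 18.1 to 31.6 TPM in WT and 14.2 to 211 TPM in HetKO. Of 22 neural markers 9 were tested and 2 fell, Zic1, a zinc finger factor, from a mean of 11.96 to 3.63 TPM and the homeobox gene En2 from 2.63 to 0.585 TPM. The summed neural level was 146 to 166 TPM in WT and 137 to 156 TPM in HetKO. The sums of 9 extraembryonic endoderm markers were 256 to 266 TPM and 182 to 229 TPM, and 3 fell, Lama1, Lamc1 and Sparc, all matrix genes, 2 of them also with pairs as a block. The sums of 5 trophoblast markers were 47.4 to 81.4 TPM and 50.6 to 107 TPM. The sums of 11 fibroblast and smooth muscle markers were 99.2 to 180.2 TPM and 59.8 to 105 TPM, and 3 fell, among them Dcn, decorin, from a mean of 2.38 to 0.542 TPM. With pairs as a block 0 fell, Dcn at a limma adjusted p of 0.0584. The shares that fell in the neural, extraembryonic endoderm and fibroblast lists were 22.2%, 33.3% and 27.3%, against 6.44% over all genes. The 13 mitochondrially encoded subunits summed to 51475 to 61820.0 TPM in WT and 52331 to 58573 TPM in HetKO, with 1 call, mt-Cytb, from a mean of 1677 to 2252 TPM. The part of such markers in the changes of the epithelial, naive and matrix lists was not tested.

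**Figure D5:**
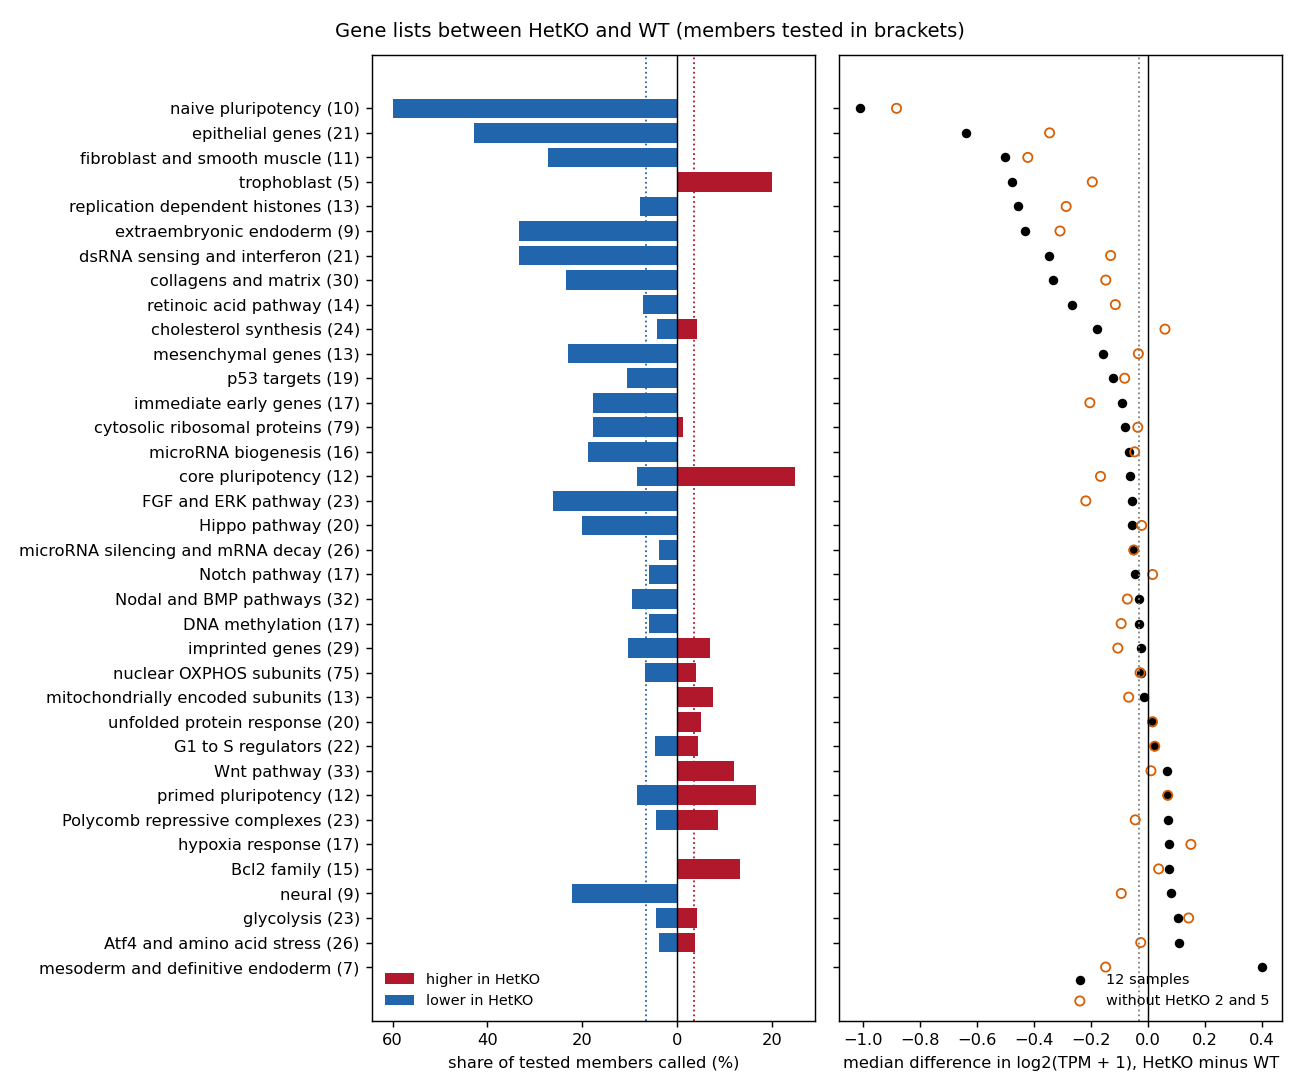
Left, share in percent of the tested members of each list called higher (red) or lower (blue) in HetKO, with dotted lines at 3.71% and 6.44%, the shares over all genes; right, median log2(TPM + 1) difference with all 12 samples (filled) and without HetKO replicates 2 and 5 (open). The naive pluripotency list has a median of -1.01 and the epithelial list -0.64, and the mesoderm and definitive endoderm list goes from 0.40 to -0.15 without HetKO replicates 2 and 5.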

How the data were processed

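Poly(A)-selected, stranded mRNA libraries of 6 WT and 6 HetKO samples were compared, with 6 HM samples given side by side. The authors merged read pairs, quantified genes with RSEM and deposited TPM values; per the submitters' processing notes, mm10, STAR and cutadapt were also used. TPM keeps no depth, so no counting interval or floor could be set, and precision came from the spread between samples. All 55450 gene identifiers matched GENCODE vM21 (GRCm38). Genes averaging 1 TPM or more were compared on log2(TPM + 1) by limma 3.58.1 (R 4.3.3), with a variance prior that followed the mean, two-sided and Benjamini-Hochberg adjusted. On simulated data for HetKO against WT with 13999 genes, this fit recovered 181 of 200 genes changed 2-fold, with 8 false calls. The simulated samples were drawn independently, without the correlation of alike pairs. These counts therefore do not describe the error of the fit where samples are correlated, as they were here.

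Members and lists were chosen with earlier results of these data known. Named genes were Dicer1 and Ago1 to Ago4, the 12 largest increases and decreases that passed the 12-sample and pair-mean fits without overlap and without model names (increases filled up from the 12-sample fit), up to 4 members of each of 39 lists by adjusted p, and up to 8 genes on in one line only. Other genes were named from the lists' called members, as X partners or as neighbours, after their values were seen. Alternatives were a pseudocount of 0.1, other filters, scalings, tests and samples left out. Some named genes are not reported here. Promoters came from RefSeq. The removal of WT replicates 1 and 4 was added after the values were seen.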

Additional observations from a re-analysis of the deposited data

Results flagged for a closer look

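In 247 groups of 6 samples, over the genes named in the report, 9 (3.64%) held a sample whose gap to its nearest neighbour, relative to the whole range, exceeded Dixon's critical value. For 6 independent, normally distributed values, about 1 in 20 such groups would occur. Samples of alike pairs were not independent here, so the 3.64% cannot be judged against that share. Ago2 was at 60.19 TPM in WT replicate 4 and at 52.7 to 54.5 TPM in the other WT samples. Sox2 was at 107.77 TPM in WT replicate 3, against 95.4 to 98.3 TPM. Vps72 was at 54.71 TPM in WT replicate 6, below the 60.05 to 62.5 TPM of the others. Boll was at 5.45 TPM in WT replicate 1, above 0.36 to 2.24 TPM. Nkx6-1 was at 0.03 TPM in WT replicate 4, below 0.07 to 0.09 TPM.

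In HetKO such samples occurred in genes that were otherwise listed at 0. Krt19 was at 0.12 TPM in HetKO replicate 1, Boll at 0.09 TPM in replicate 6, Wdr86 at 0.08 TPM in replicate 4 and Lama1 at 0.01 TPM in replicate 5, with 0 in the other 5 samples each time.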

How the results depend on the processing

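The count of 1421 called genes was 852 with the Welch test per gene, 666 with a limit of at least 1.5-fold, 320 with alike pairs as a correlated block, 35 on pair means and 2510 without HetKO replicates 3 and 6. It was 1087 without HetKO replicates 2 and 5, 2015 without HetKO replicates 1 and 4, 1092 without WT replicates 1 and 4 (chosen after seeing the data) and 1306 without chromosome 3 from 90 to 120 Mb. Leaving out 1 sample gave 948 (HetKO replicate 5) to 1517 (HetKO replicate 3). The cause was not tested. With the replicate number as block, 1206 genes passed, 1008 of them among the 1421. Same-numbered samples correlated in their deviations at 0.0246 to 0.116, and 3 of 6 HetKO samples correlated best with their own number, and since not every such correlation was over 0.1 the numbers were not taken to pair the samples. Dicer1 differed by -0.19 to -0.07 over 28 settings and passed in 1, without HetKO replicates 1 and 4 (-0.1918).

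Of 3260 values of named genes under the alternatives, 2786 kept their direction and call, 437 lost the call, 9 gained it and 28 changed sign, the last in genes that had not passed. Ago1 went to 0.0188 after centring, 0.0817 without HetKO replicates 2 and 5 and -0.1377 to 0.0223 leaving out 1 sample. Pou5f1 went to 0.0545 centred, 0.0728 quantile normalized, 0.0903 without HetKO replicates 1 and 4, 0.0007 without WT replicates 1 and 4 and -0.0214 to 0.0399 leaving out 1 sample. Eif2s3x went to -0.0285 quantile normalized, -0.0366 and -0.0105 without HetKO replicates 2 and 5 or 3 and 6, and -0.0124 to 0.0457 leaving out 1 sample. Rpl22-ps1 went to -0.0137 without HetKO replicates 1 and 4 and -0.0203 to 0.3229 leaving out 1 sample. Without HetKO replicates 2 and 5, Ddx3x was at -0.0422 and T at -0.5957. Gm20775 was at 0.0083 quantile normalized and Kdm5c at 0.003 centred. Depth cannot be read from TPM, so how far it limits genes near 1 TPM is unknown.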
